A study of Rattus norvegicus with 28 samples.

Results

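The transcripts of Ccl2, Ccl7 and Ccl12, which encode 3 secreted chemokines that attract monocytes, were followed across cultured rat microglia and astrocytes. Members were taken by exact gene symbol, and all 3 were found, out of 28459 symbols in the count tables of the series (15009 of them in every table). The series holds 28 RNA-seq libraries from primary cortical cells of Wistar pups at postnatal day 1, in 8 groups. Microglia (3 libraries per group) and astrocytes (4 per group) each received buffer, ENV at 1 µg/ml, H2O or LPS at 100 ng/ml. ENV is the recombinant envelope protein of the human endogenous retrovirus HERV-W, with buffer as its vehicle, and LPS is a wall component of Gram-negative bacteria, with H2O as its vehicle. All cells grew in medium with 10% fetal calf serum, after 10 days as mixed cultures in flasks. Microglia were shaken off, purified with CD11b/c magnetic beads and stimulated 1 day later, whereas astrocytes were stimulated 3 days after isolation. The labels give neither the duration of stimulation nor the origin of replicates (separate litters or not). A p-value thus reflects differences among these libraries, and such differences may be technical. The members were counted 38 times (Ccl12, astrocytes with buffer, replicate 2) to 128912 times (Ccl12, microglia with LPS, replicate 3) in a library.

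CC chemokines of this family are released by glia, endothelium and macrophages and bind the G protein-coupled receptor Ccr2 on circulating monocytes, which follow them into injured or infected brain. Ccl2 is the main monocyte attractant, Ccl7 also binds Ccr1 and Ccr3, and Ccl12 is a rodent gene that acts through Ccr2. The 3 genes lie in one chemokine cluster on chromosome 10, in the order Ccl2, Ccl7, Ccl11, Ccl12 and Ccl1 in the RefSeq annotation of GRCr8. Their transcription is known to be driven by NF-kB and AP-1 downstream of TLR4, the LPS receptor, and downstream of receptors for IL-1 and TNF.

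Promoters of 2 of the 3 members (Ccl7 and Ccl12) were matched in the RefSeq table of GRCr8 and are shown because these genes moved together while their ratio differed between the cell types. Each sequence below is the 250 bases before the annotated start, read 5′ to 3′ on the + strand, which is the coding strand of both genes. Capitals mark matches to searched motifs. The Ccl7 stretch is chr10:67513845-67514094 and the Ccl12 stretch is chr10:67567626-67567875, coordinates of GRCr8 that were used for sequence alone, since the assembly named in the submitters' processing notes is mRatBN7.2.
Ccl7 promoter: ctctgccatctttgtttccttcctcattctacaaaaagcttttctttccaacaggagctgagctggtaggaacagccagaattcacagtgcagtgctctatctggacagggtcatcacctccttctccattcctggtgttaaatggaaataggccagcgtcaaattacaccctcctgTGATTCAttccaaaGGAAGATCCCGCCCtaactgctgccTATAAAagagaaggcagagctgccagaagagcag
Ccl12 promoter: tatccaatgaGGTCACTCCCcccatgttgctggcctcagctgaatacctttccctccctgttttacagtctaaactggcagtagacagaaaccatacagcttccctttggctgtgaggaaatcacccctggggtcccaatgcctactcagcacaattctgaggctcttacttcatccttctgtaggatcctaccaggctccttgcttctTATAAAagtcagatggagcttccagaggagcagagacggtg
The window searched, on both strands, ran from 250 bases before to 50 bases after the start, and 33469 promoters of that length served as background. The NF-kB motif GGGNNNNNCC matched in both genes on the - strand, at base -59 of Ccl7 (GGAAGATCCC as printed) and base -240 of Ccl12 (GGTCACTCCC as printed), and 47.3% of promoters held it. The TATA motif TATAAA matched in both, at base -34 of Ccl7 and base -41 of Ccl12 (14.2% of promoters). Matches to the AP-1 motif TGANTCA (base -73, 7.33% of promoters) and to the GC box GGGCGG (base -51, overlapping the NF-kB match, 33.1%) were found in Ccl7 and not in the Ccl12 window. The interferon-gamma motif TTCNNNGAA matched in Ccl7 32 bases after the start (8.87%), outside the stretch shown, and the interferon response motif GAAANNGAAA (3.92%) matched in neither window. A match is a run of letters, not a measured binding site, and the ratios below were not compared with the motifs.

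Markers of the labelled cell type were present in every library, and the astrocyte cultures held fibroblast and mural cell transcripts as well. The microglial libraries held 26513999 to 42724111 counts each and the astrocyte libraries 23742228 to 35326938, and levels are given in CPM, a gene's counts per 1e+06 counts of its library. Summed markers of microglia and macrophages (11 of 12 listed genes had counts) ran from 4357 to 8839 CPM in the microglial libraries and from 140 to 659 CPM in the astrocyte libraries. Summed astrocyte markers (10 of 10) ran from 2616 to 11650 CPM in astrocytes and from 24.5 to 294.3 CPM in microglia. Fibroblast and mural cell markers (9 of 9) summed to 2737 to 10940 CPM in vehicle astrocyte cultures, a range like that of astrocyte markers there (5709 to 11650 CPM), and to 1633 to 3528 CPM in the treated ones. Microglia with H2O, replicate 3, stood apart from replicates 1 and 2 in oligodendrocyte markers (179 CPM against 16.7 and 17.1 CPM). These markers were at 303 to 336 CPM in microglia with buffer and 81.3 to 169 CPM with ENV, nearer to H2O replicate 3 than to replicates 1 and 2. Which of the H2O libraries was unusual was not tested. Microglia with LPS, replicate 3, stood apart in microglial markers (4357 CPM against 7171 and 6503 CPM). Tests of the members for LPS in microglia are therefore also given without the H2O and LPS libraries numbered 3. So are other values that this pair of libraries moves by over 1.5 times. In bulk RNA, fewer cells of a type and less RNA per cell cannot be told apart.

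ENV raised all 3 transcripts in microglia, and of the 3 log2 changes that of Ccl12 was the highest. All 3 were called as higher (adjusted p under 0.05, edgeR quasi-likelihood test adjusted over all genes), where 16.2% of 12844 tested genes were called as higher. Ccl2 stood at 41.03, 38.2 and 24.3 CPM with buffer and at 547, 615 and 389 CPM with ENV (replicates 1 to 3). Every library with ENV lay above every library with buffer, which held for all 3 members and for 16.7% of tested genes. The log2 change of Ccl2 was 4.11 ± 0.27 (SE, n = 3 each, adjusted p = 0.000223). Ccl7 stood at 89.6, 71.5 and 50.5 CPM with buffer and at 541, 600 and 371 CPM with ENV, a log2 change of 3.04 ± 0.28 (adjusted p = 0.000542). Replicate 3 was the lowest of its group for both genes with and without ENV. Ccl12 rose from 34.5, 34.9 and 23.9 CPM to 764, 1023 and 597 CPM, a log2 change of 4.88 ± 0.27 (adjusted p = 0.00014). Set against the library of the same number, Ccl12 was 22.2 to 29.3 times as high with ENV, Ccl2 13.3 to 16.1 times and Ccl7 6.04 to 8.40 times. Among the 12844 log2 changes, ranked from the most positive, Ccl12 stood at place 82, Ccl2 at 129 and Ccl7 at 241.

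LPS raised all 3 in microglia too, with replicate 3 far above the other libraries. The background here was 16% of 12229 genes called as higher, and 13.8% of genes had every LPS library above every H2O library, as the 3 members did. Ccl2 stood at 75.7, 30.9 and 26.7 CPM with H2O and at 702, 429 and 2783 CPM with LPS, a log2 change of 5.17 ± 0.93 (adjusted p = 0.0114). Ccl7 stood at 100.3, 42.1 and 27.01 CPM with H2O and at 934, 632 and 2636 CPM with LPS, a log2 change of 4.93 ± 0.82 (adjusted p = 0.00907). Ccl12 stood at 24.3, 18.8 and 5.97 CPM with H2O and at 1347, 949 and 3385 CPM with LPS, a log2 change of 7.15 ± 0.86 (adjusted p = 0.00411). In replicate 3 the lowest H2O value of each gene met the highest LPS value. The ratio of LPS to H2O for Ccl12 was therefore 567 in replicate 3 against 55.6 and 50.4 in the other two, and for Ccl2 it was 104 against 9.28 and 13.9. Without both libraries numbered 3 the log2 changes were 3.70 ± 0.55 for Ccl2 (adjusted p = 0.00869), 3.75 ± 0.52 for Ccl7 (adjusted p = 0.00724) and 6.03 ± 0.33 for Ccl12 (adjusted p = 0.000675). Without LPS replicate 3 alone they were 3.98, 4.10 and 6.44, and without H2O replicate 1 those of Ccl2 and Ccl7 were 5.82 and 5.66. Ccl2 was not called when H2O replicate 2 was left out (adjusted p = 0.0578).

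**Figure D1:**
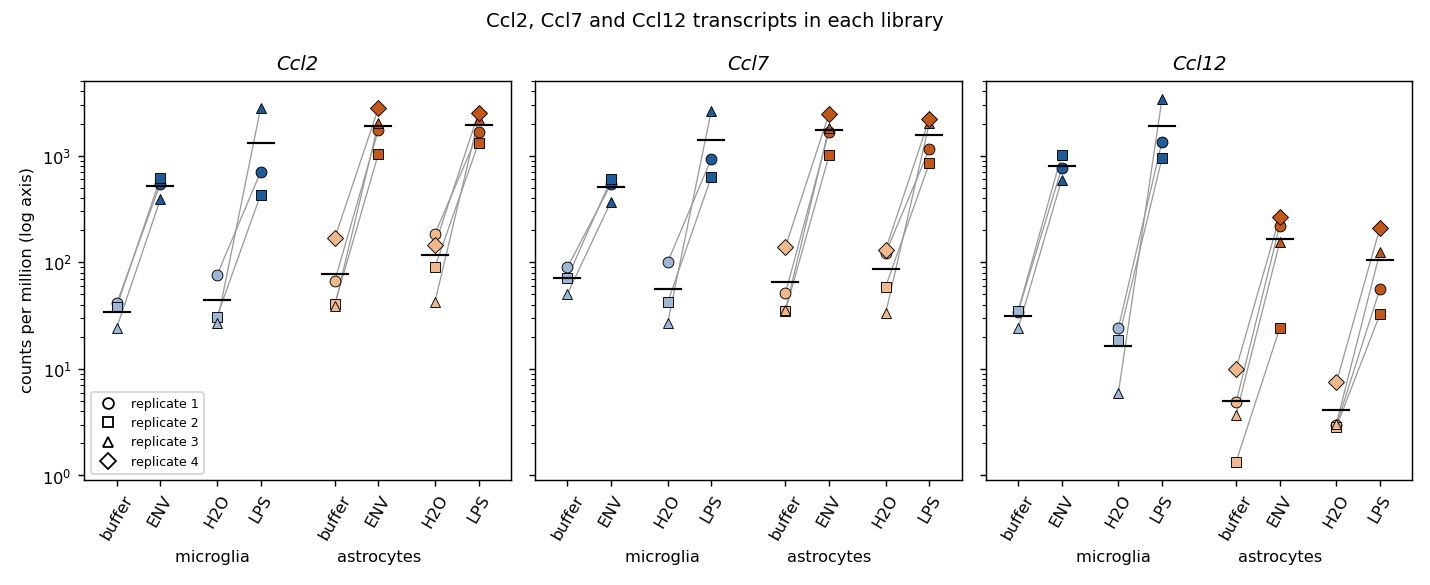
CPM on a log axis for Ccl2, Ccl7 and Ccl12 in each of the 28 libraries, with symbols for replicate numbers, grey lines between libraries of the same number and black bars at group means. Treated libraries lie above their vehicle libraries in every panel, and Ccl12 in astrocytes (1.35 to 266 CPM) lies below Ccl12 in treated microglia (597 to 3385 CPM).

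In astrocytes ENV raised Ccl2 and Ccl7 to 1004 CPM or more and Ccl12 to a lower level. All 3 were called as higher, against 9.52% of 14941 tested genes (14.2% with the replicate number as a block), and all 3 had every ENV library above every buffer library, against 12.2% of genes. Ccl2 stood at 66.5, 40.2, 38.6 and 168 CPM with buffer and at 1738, 1035, 2005 and 2776 CPM with ENV (replicates 1 to 4), a log2 change of 4.63 ± 0.57 (n = 4 each, adjusted p = 0.00188). Ccl7 stood at 51.1, 34.8, 35.4 and 139 CPM with buffer and at 1681, 1004, 1828 and 2469 CPM with ENV, a log2 change of 4.78 ± 0.55 (adjusted p = 0.0014). Replicate 4 was the highest in both groups for both genes. Without buffer replicate 4 the log2 changes were 5.28 for Ccl2 and 5.43 for Ccl7. Ccl12 stood at 4.86, 1.35, 3.72 and 10.1 CPM with buffer and at 221, 24.0, 154 and 266 CPM with ENV, a log2 change of 5.08 ± 0.84 (adjusted p = 0.00589). Replicate 2 was the lowest of its group for Ccl12 in both groups. Between libraries of the same number Ccl12 was 17.8 to 45.4 times as high with ENV, Ccl2 16.6 to 51.9 times and Ccl7 17.8 to 51.6 times.

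With LPS all 3 members rose in the astrocyte cultures too, in a comparison with few calls. Genes called as higher made up 2.64% of 14710 tested (7.89% with the replicate block), and the 3 members were called with and without the block. Ccl2 stood at 185, 90.4, 42.7 and 145 CPM with H2O and at 1664, 1316, 2223 and 2520 CPM with LPS, a log2 change of 4.09 ± 0.48 (adjusted p = 0.00688). Ccl7 stood at 122, 59.1, 33.2 and 132 CPM with H2O and at 1146, 848, 2008 and 2208 CPM with LPS, a log2 change of 4.20 ± 0.54 (adjusted p = 0.00819). Ccl12 stood at 2.95, 2.87, 3.06 and 7.45 CPM with H2O and at 56.4, 32.5, 125 and 210 CPM with LPS, a log2 change of 4.75 ± 0.68 (adjusted p = 0.00979). The groups did not overlap for any of the 3, which held for 7.02% of tested genes. Replicates 3 and 4 were the highest with LPS for all 3 genes. Ranked by log2 change, Ccl12 stood at place 42, Ccl7 at 54 and Ccl2 at 59 of 14710.

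The sum of the 3 transcripts was taken as a share of the counts of each library, not corrected for gene length. They made up 0.0136% ± 0.0034 (SD, n = 3) of counts in microglia with buffer, 0.182% ± 0.044 with ENV, 0.0117% ± 0.0074 with H2O and 0.460% ± 0.367 with LPS, where replicate 3 alone reached 0.881%. In astrocytes they made up 0.0148% ± 0.0114 (n = 4) with buffer, 0.380% ± 0.142 with ENV, 0.0207% ± 0.0110 with H2O and 0.359% ± 0.127 with LPS. Treated libraries of either cell type thus carried at least 0.136% and vehicle libraries at most 0.0317%.

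Ordered by group means, Ccl2 ran from 34.5 CPM in microglia with buffer through 44.4 (microglia, H2O), 78.2 (astrocytes, buffer), 116 (astrocytes, H2O), 517 (microglia, ENV), 1305 (microglia, LPS) and 1888 (astrocytes, ENV) to 1930 CPM in astrocytes with LPS. The ranges of neighbours in that order overlapped except between astrocytes with H2O and microglia with ENV. For Ccl7 the order ran from 56.5 CPM in microglia with H2O through 65.1 (astrocytes, buffer), 70.5 (microglia, buffer), 86.5 (astrocytes, H2O), 504 (microglia, ENV), 1401 (microglia, LPS) and 1553 (astrocytes, LPS) to 1745 CPM in astrocytes with ENV. Its ranges parted at 2 places, above astrocytes with H2O and above microglia with ENV. Ccl12 had another order, from 4.08 CPM in astrocytes with H2O through 4.99 (astrocytes, buffer), 16.3 (microglia, H2O), 31.1 (microglia, buffer), 106 (astrocytes, LPS), 166 (astrocytes, ENV) and 795 (microglia, ENV) to 1894 CPM in microglia with LPS. Its ranges parted only between astrocytes with ENV and microglia with ENV. Without the microglial libraries numbered 3, the means with LPS were 565, 783 and 1148 CPM for Ccl2, Ccl7 and Ccl12 at the same places in the order, and Ccl2 with LPS (429 and 702 CPM) lay below every treated astrocyte library. Ccl7 with H2O then had a mean of 71.2 CPM, just above microglia with buffer.

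Without stimulation, Ccl12 was the member that differed between the cell types. Its level was higher in microglia with buffer than in astrocytes with buffer by 3.02 ± 0.53 on the log2 scale (95% interval 1.80 to 4.25, adjusted p = 0.0012), and higher with H2O by 2.54 ± 0.56 (1.22 to 3.85, adjusted p = 0.00519). Genes called as higher in microglia made up 33.6% of 12984 tested with buffer and 33.2% of 12916 with H2O, so a call of this kind was common between the 2 cell types. The difference for Ccl2 was -0.79 ± 0.51 with buffer (-1.96 to 0.38, adjusted p = 0.196) and -0.86 ± 0.57 with H2O (-2.21 to 0.49, adjusted p = 0.21). For Ccl7 it was 0.51 ± 0.48 with buffer (-0.60 to 1.61, adjusted p = 0.365) and -0.08 ± 0.60 with H2O (-1.50 to 1.33, adjusted p = 0.907). Without astrocyte buffer replicate 4, the highest of its group, Ccl7 was called as higher in microglia with buffer (log2 difference 1.13, adjusted p = 0.00554).

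The ratios of Ccl12 to Ccl2 and to Ccl7 separated the cell types in every library, and that of Ccl7 to Ccl2 did not. A ratio of 2 counts from the same library does not depend on depth, and its change between libraries does not depend on gene length. The ratio of Ccl12 to Ccl2 counts ran from 0.224 to 2.21 over the 12 microglial libraries and from 0.0159 to 0.127 over the 16 astrocyte libraries, with no overlap. The ratio of Ccl12 to Ccl7 behaved alike, at 0.221 to 1.70 in microglia and 0.0239 to 0.131 in astrocytes. Ccl7 to Ccl2 ran from 0.947 to 2.18 in microglia and from 0.644 to 0.97 in astrocytes, which overlapped slightly. The 3 genes are paralogs, and how reads shared between them were assigned was not stated in the labels, and the share of a ratio that rests on this assignment was not tested.

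In microglia 5 of 6 comparisons of a ratio (3 ratios, 2 agents) had no overlap between treated and vehicle libraries. The 3 ratios are tied, since any 2 of them fix the third. The share without overlap among ratios of other genes was not computed. Among single genes, every treated library lay above every vehicle library for 16.7% with ENV and 13.8% with LPS. Ccl12 to Ccl2 was 0.840 to 0.986 with buffer and 1.40 to 1.66 with ENV, higher in all 3 same-number pairs by 0.64 to 0.87 on the log2 scale. It was 0.224 to 0.609 with H2O and 1.22 to 2.21 with LPS, higher in all 3 pairs by 1.86 to 2.58, and without the libraries numbered 3 it was 0.320 and 0.609 with H2O and 1.92 and 2.21 with LPS. Ccl7 to Ccl2 differed in the other direction, at 1.87 to 2.18 with buffer and 0.953 to 0.990 with ENV, with log2 differences of -1.14 to -0.94 in the 3 pairs. With LPS the ratios of Ccl7 to Ccl2 with H2O (1.01 to 1.36) and with LPS (0.947 to 1.47) overlapped, and the mean log2 difference was 0.01 (exact permutation test, 2-sided, p = 0.9). The 5 differences without overlap, Ccl12 to Ccl7 with each agent included (1.81 and 2.29), each reached p = 0.1 in the exact permutation test (adjusted p = 0.2 over 12 tests), the smallest p that 3 libraries against 3 allow, so none could pass 0.05.

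In astrocytes all ratios overlapped between treated and vehicle libraries. Ccl12 to Ccl2 ran from 0.0335 to 0.0963 with buffer, 0.0232 to 0.127 with ENV, 0.0159 to 0.0716 with H2O and 0.0247 to 0.0835 with LPS. The log2 ratio differed by 0.15 with ENV (exact permutation p = 0.8) and by 0.26 with LPS (exact permutation p = 0.657), with 2 of 4 pairs higher in each case. For Ccl7 to Ccl2 the difference was 0.15 with ENV (exact permutation p = 0.0857, adjusted p = 0.2) and 0.05 with LPS (p = 0.771 in the exact permutation test). The exact permutation test of 4 libraries against 4 could reach p = 0.0286. In the LPS set the ratio of Ccl7 to Ccl2 went with replicate number, at 0.644 to 0.689 in replicates 1 and 2 of H2O and LPS and at 0.778 to 0.905 in replicates 3 and 4.

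**Figure D2:**
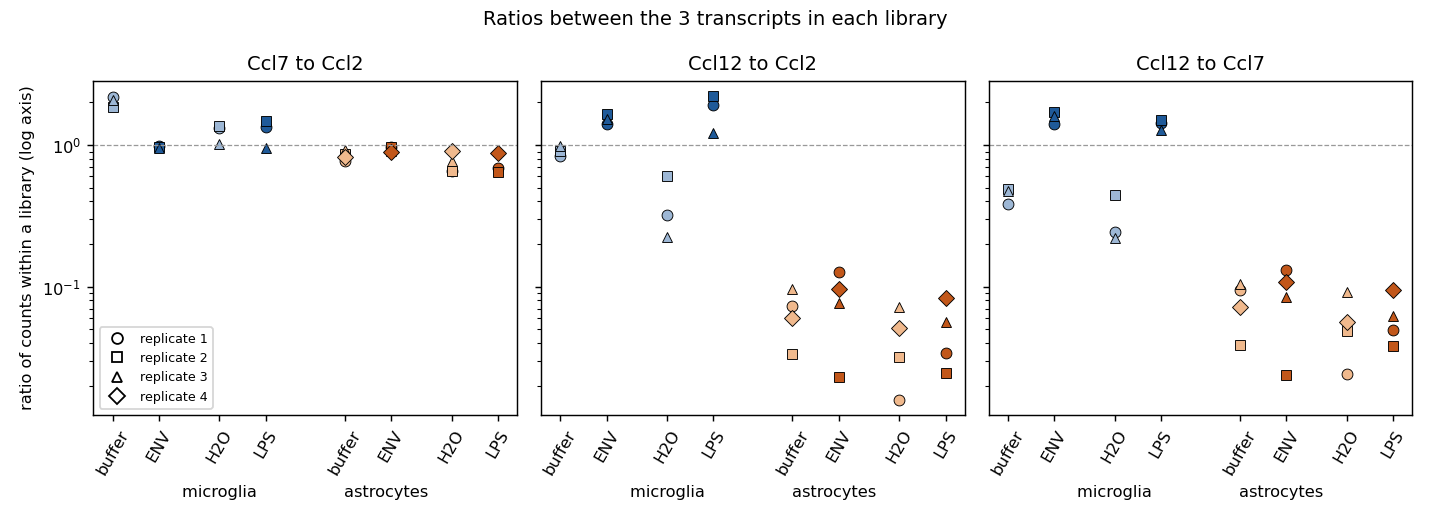
Ratios of counts between members within each library, on a log axis with a dashed line at a ratio of 1. Ccl12 to Ccl2 lies between 0.0159 and 0.127 in astrocytes and between 0.224 and 2.21 in microglia, and Ccl7 to Ccl2 in microglia is lower with ENV (0.953 to 0.990) than with buffer (1.87 to 2.18).

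Within each treated astrocyte group and with H2O, Ccl12 had the order of the microglial marker sums over the 4 libraries, and with buffer it did not. With ENV the microglial markers summed to 333, 146, 267 and 393 CPM in replicates 1 to 4, and Ccl12 at 221, 24.0, 154 and 266 CPM had the same order. With LPS the markers summed to 153, 140, 261 and 377 CPM, and Ccl12 at 56.4, 32.5, 125 and 210 CPM again had that order, as did Ccl2 and Ccl7 with LPS. With H2O the markers summed to 283, 262, 445 and 651 CPM, and Ccl12 at 2.95, 2.87, 3.06 and 7.45 CPM had that order too. With buffer the orders differed, at 658.5, 189, 426.5 and 634 CPM of markers and 4.86, 1.35, 3.72 and 10.05 CPM of Ccl12. The share of all genes that followed the marker order was not computed. Over both treated groups the order broke at the lowest values, where markers of 140 and 146 CPM met 32.5 and 24.0 CPM of Ccl12. In all 8 same-number pairs the vehicle library held more of these markers (189 to 659 CPM with buffer, 262 to 651 CPM with H2O) and less Ccl12. The marker sum in astrocyte cultures was 6.2% of that in microglia with buffer, 3.8% with ENV, 5.43% with H2O and 3.87% with LPS, and mean Ccl12 was 16.1%, 20.9%, 25% and 5.6% of the microglial mean. The part of these cells in the astrocyte Ccl12 level was not tested. Mean Ccl2 in the same cultures was 227%, 365%, 261% and 148% of the microglial mean, and mean Ccl7 was 92.2%, 346%, 153% and 111%. Without microglial LPS replicate 3 the percentages with LPS were 341% for Ccl2, 198% for Ccl7, 9.23% for Ccl12 and 3.41% for the markers. Most other marker sums were lower in treated astrocyte cultures too. In all 8 same-number pairs the treated library had less of the astrocyte markers (42.6% to 80.3% of vehicle), neuronal markers (30.9% to 67.6%), endothelial markers (49.8% to 86.3%) and fibroblast and mural cell markers (24.5% to 66.0%), beside 50.6% to 77.0% for microglial markers. Oligodendrocyte markers were lower in 7 of 8 pairs, and the lists for lymphocytes and for granulocytes and blood monocytes were higher in all 8. Lymphocyte sums were low throughout, at most 0.368 CPM with buffer, 0.787 with ENV, 0.124 with H2O and 0.897 with LPS. Replicate 2 had 0 CPM with buffer and with H2O, and 0.0315 CPM with ENV. Most lymphocyte genes had no entry in the astrocyte count tables, so this rise rested on few genes and low counts. The part of these marker shifts in the members' levels was not tested.

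**Figure D3:**
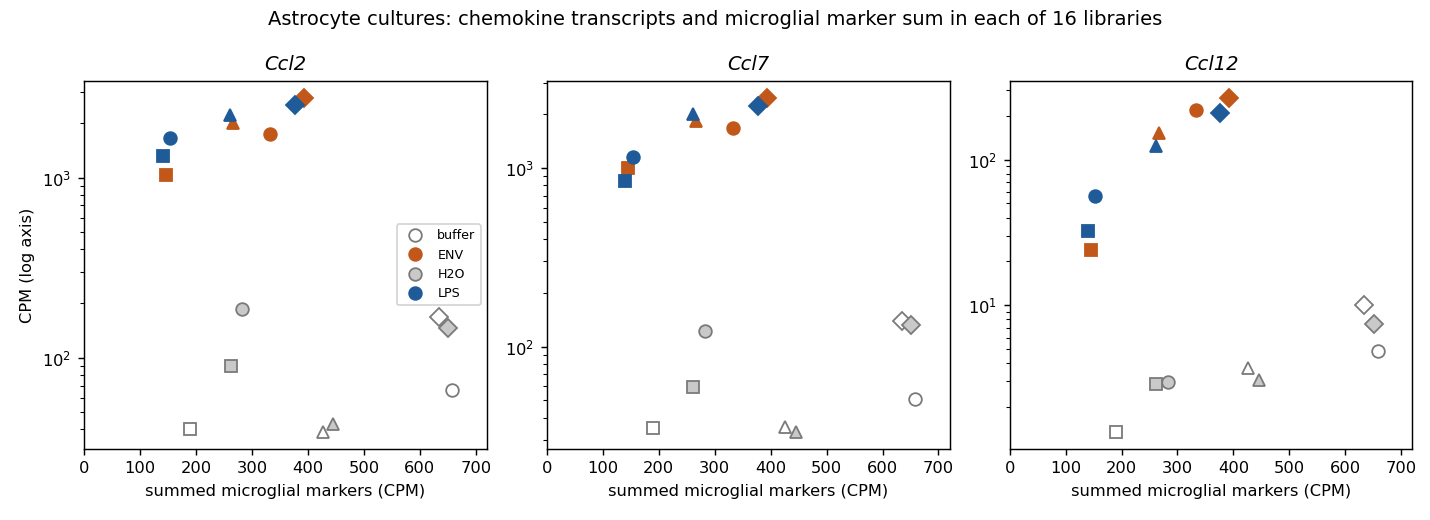
CPM of each member (log axis) against the summed CPM of microglial markers in the 16 astrocyte libraries, with symbols for replicate numbers and colours for treatments. Among treated libraries the 5 with markers of 261 CPM or more have more Ccl12 (125 CPM or more) than the 3 with markers of 140 to 153 CPM (24.0 to 56.4 CPM).

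The responses of the 2 cell types were compared directly as interaction terms. For ENV, the response of Ccl7 was smaller in microglia than in astrocytes by 1.75 ± 0.63 on the log2 scale without passing the threshold (95% interval -3.10 to -0.39, edgeR adjusted p = 0.0793). With the replicate block the difference was -1.90 ± 0.32 (-2.63 to -1.17) and was called (adjusted p = 0.00434), as it was with DESeq2 (-1.70, adjusted p = 0.0399) and without astrocyte buffer replicate 4 (-2.38, adjusted p = 0.00433). The last was the largest difference of the 14 edgeR fits that each left out 1 library. Their adjusted p ran up to 0.166, so the call depended on the fit. Genes with a smaller response in microglia, called without and with the block, made up 8.07% and 13.2% of 13378 tested. For Ccl2 the difference was -0.53 ± 0.65 (-1.93 to 0.88, adjusted p = 0.644) and for Ccl12 -0.21 ± 0.91 (-2.18 to 1.75, adjusted p = 0.915). For LPS, the response of Ccl12 in microglia minus that in astrocytes was 2.42 ± 1.00 (0.25 to 4.58, adjusted p = 0.135), where 5.32% of 13284 genes were called as larger in microglia (9.11% with the block). Without the microglial H2O and LPS libraries numbered 3 it was 1.24 ± 0.93. The differences for Ccl2, 1.11 ± 0.93 (-0.91 to 3.13), and Ccl7, 0.74 ± 0.90 (-1.23 to 2.70), were not called, and without that pair of libraries they were -0.43 and -0.50.

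ENV and LPS responses were also set against each other within a cell type. In microglia the ENV response minus the LPS response was -1.04 ± 0.92 for Ccl2 (95% interval -3.07 to 0.99, adjusted p = 0.832), -1.85 ± 0.84 for Ccl7 (-3.71 to 0.002, adjusted p = 0.703) and -2.24 ± 0.79 for Ccl12 (-4.00 to -0.49, adjusted p = 0.689). No gene of 13270 was called by edgeR in this comparison, with 937 at an unadjusted p under 0.05, and 67 were called by DESeq2. Without the libraries numbered 3 the differences were 0.32, -0.79 and -1.24. In astrocytes the differences were 0.55 ± 0.69 for Ccl2 (-0.93 to 2.02), 0.58 ± 0.71 for Ccl7 (-0.94 to 2.10) and 0.34 ± 1.01 for Ccl12 (-1.82 to 2.50), and no gene of 15496 was called by edgeR or DESeq2 (76 at an unadjusted p under 0.05 in edgeR). Without astrocyte buffer replicate 4 these differences were 1.19, 1.22 and 0.90. ENV (1 µg/ml) and LPS (100 ng/ml) differed in dose and vehicle.

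**Figure D4:**
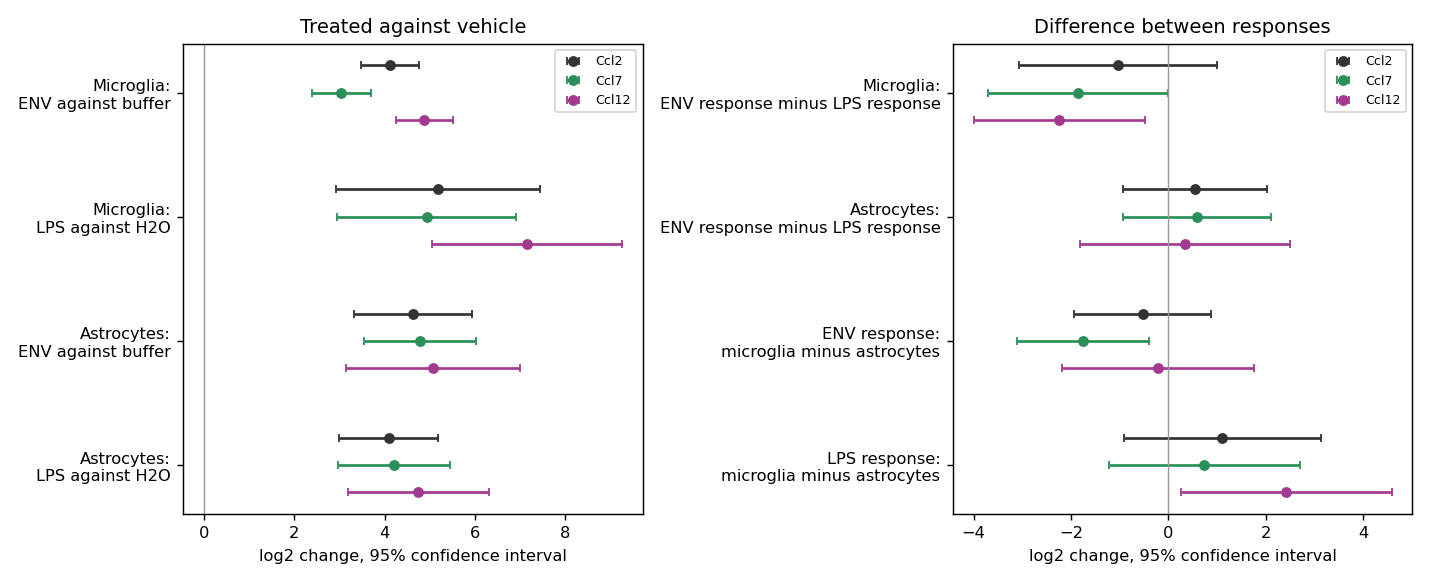
Log2 changes of the 3 members with 95% confidence intervals, on the left for each treated group against its vehicle and on the right for differences between responses. All 12 intervals on the left lie above 0 (the lowest bound is 2.39), and the interval of Ccl7 for the ENV response of microglia minus astrocytes lies below 0 (-3.10 to -0.39) without a call.

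Transcripts of the receptors Ccr2 and Ccr3 were scarce in the cultures. Ccr2, the shared receptor, had 2 counts over the 12 microglial libraries (at most 0.0337 CPM, where 3 counts equal 0.0702 to 0.113 CPM). No entry under the symbol Ccr2 was found in the astrocyte count tables, and none under Ccr1 in those of either cell type, so their levels there are not known. Ccr3, which Ccl7 can bind, reached at most 0.151 CPM in any library. Ccrl2, an atypical receptor that binds chemerin, rose in microglia with LPS (2.40 ± 0.40 on the log2 scale, adjusted p = 0.0094) and was not called in the other 3 comparisons. The scavenging receptors Ackr1, Ackr2 and Ackr4 stayed at or below 1.95 CPM.

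Of the other ligands, Ccl3, Ccl4 and Ccl5 rose in all 4 treated comparisons, and the cluster genes Ccl11 and Ccl1 had few counts. Ccl11 and Ccl1, the protein-coding genes on each side of Ccl12, had 2 counts and 1 count over all microglial libraries and 7 and 60 over all astrocyte libraries, with at most 0.122 and 0.408 CPM in a library. In microglia with ENV, Ccl3 rose from 219 ± 35.4 to 793 ± 192 CPM (log2 change 2.05) and Ccl4 from 68.1 ± 12.9 to 152 ± 34.7 CPM (1.36). With LPS in microglia their log2 changes were 4.59 and 4.46, and 2.76 and 2.83 without the libraries numbered 3. Ccl3 was at 2960 ± 3800 CPM with LPS there, and DESeq2 did not call it. Ccl5 had 1 count with buffer and 1284 with ENV, a ratio of 1227 (95% counting interval 219.9 to 48520). In astrocytes Ccl5 rose from 0.672 ± 0.709 to 767 ± 279 CPM with ENV (log2 change 10.1, adjusted p = 0.000348) and from 0.419 ± 0.4 to 541 ± 496 CPM with LPS (10.4, adjusted p = 0.00773).

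Receptors, other ligands, ligand-trimming proteases and regulators of the 3 chemokines were counted in lists chosen with earlier results of these data known. Over all 10 lists (69 genes), 28 of 52 tested genes rose and 3 fell in microglia with ENV, 24 of 53 rose and 3 fell in microglia with LPS, 24 of 54 rose and 1 fell in astrocytes with ENV, and 17 of 53 rose in astrocytes with LPS. The shares of all tested genes called as higher were 16.2%, 16%, 9.52% and 2.64% in the same order. Without the microglial libraries numbered 3, 25 of 52 rose and 5 fell with LPS, beside 17.4% of all genes called as higher. The median log2 changes were 0.59, 0.82, 0.85 and 0.84 in that order, beside -0.03, -0.02, 0.02 and 0.03 over all genes. Of the cytokines and receptors known to induce the ligands, 3 of 8 rose and 2 fell in microglia with ENV, 4 of 8 rose and 1 fell with LPS, and 6 of 8 rose in astrocytes with each agent. Il1b, which encodes a ligand of the IL-1 receptor, rose by 3.47 and 4.27 on the log2 scale in microglia with ENV and LPS (2.98 without the libraries numbered 3) and by 7.07 and 6.48 in astrocytes. Its level in astrocyte cultures, 331 ± 219 CPM with ENV, was below the 2880 ± 688 CPM of microglia with ENV. Il1a rose in all 4 comparisons as well, by 3.32, 6.62, 7.87 and 7.04, where the value for microglia with LPS was 3.38 without those libraries. With all libraries, DESeq2 did not call Il1a in microglia with LPS. Pdgfb, a growth factor subunit, fell in microglia with ENV from 28.8 ± 14.9 to 3.86 ± 1.32 CPM (log2 change -2.69, adjusted p = 0.00699).

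Among TLR4 and its partners, 5 of 8 tested genes rose in microglia with ENV and 2 of 8 rose and 1 fell in microglia with LPS, beside 16.2% and 16% of all genes called as higher. In astrocytes edgeR called 0 of 9 with ENV and 0 of 8 with LPS, with 4 and 3 at an unadjusted p under 0.05, and DESeq2 called 3 in each, among them Cd14 and Ly96, the partner of TLR4 known as MD-2. Cd14, the co-receptor that hands LPS to TLR4, rose in microglia from 450 ± 49.8 to 1090 ± 198 CPM with ENV and from 341 ± 91.9 to 1290 ± 364 CPM with LPS. Tlr4 itself fell in microglia with LPS, from 85.8 ± 4.87 to 31.7 ± 13.0 CPM (log2 change -1.13, adjusted p = 0.0424). In astrocytes Tlr4 stood at 4.10 ± 1.88 CPM with buffer and 3.96 ± 1.78 CPM with H2O, and Cd14 had log2 changes of 2.08 ± 0.72 with ENV and 1.42 ± 0.52 with LPS, not called by edgeR.

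Of the transcription factors of the ligand genes, 5 of 10 rose in microglia with ENV and 2 of 10 with LPS, and in astrocytes 5 of 10 rose and 1 fell with ENV and 2 of 10 rose with LPS. These counts are from edgeR, and all genes called as higher made up 16.2%, 16%, 9.52% and 2.64% in the same order. The 2 of 10 in microglia with LPS is near the 16% there. DESeq2 called the same 6 of 10 in astrocytes with each agent. With LPS there, 7 of 10 had an unadjusted p under 0.05 in edgeR. Nfkbiz, an NF-kB cofactor of the IkB family, rose by 0.85 and 1.92 in microglia with ENV and LPS (0.99 and not called, adjusted p = 0.104 in edgeR, without the libraries numbered 3). In astrocytes Nfkbiz rose by 3.50 with ENV. With LPS its log2 change there was 3.23, called by DESeq2 and not by edgeR (edgeR adjusted p = 0.0681). Cebpb, a C/EBP factor, rose by 1.74 and 1.67 in microglia and by 2.22 in astrocytes with ENV. In astrocytes with LPS its log2 change of 1.8 was called by DESeq2 and not by edgeR (edgeR adjusted p = 0.0882). Inhibitors of NF-kB rose in most cases by edgeR, 4 of 5 in microglia with either agent and 5 and 3 of 5 in astrocytes with ENV and LPS. DESeq2 called 5 of 5 in astrocytes with each agent. Nfkbia, which encodes the inhibitor IkB alpha, rose in all 4 comparisons, by 1.36 and 1.98 in microglia and by 2.94 and 2.77 in astrocytes. Zc3h12a encodes regnase-1, an RNase that degrades cytokine messages, and rose in all 4, by 1.09, 2.08, 2.94 and 2.77. Among proteases that can trim these chemokines, Mmp9 rose from 13.4 ± 7.72 to 512 ± 272 CPM in microglia with ENV and from 1.05 ± 0.259 to 206 ± 146 CPM in astrocytes with ENV, and its log2 change of 2.80 in microglia with LPS was not called (edgeR adjusted p = 0.16, and 1.18 with adjusted p = 0.0388 without the libraries numbered 3). Mmp14 rose in microglia with ENV and LPS (3.43 and 3.66, the latter 2.90 without those libraries). In astrocytes edgeR did not call Mmp14, at 291 ± 34.9 CPM with buffer and 214 ± 20.2 CPM with ENV (log2 change -0.43, edgeR adjusted p = 0.0501) and at means of 264 and 212 CPM with H2O and LPS (-0.30), with no overlap in either case. DESeq2 called Mmp14 there with ENV and not with LPS. Dpp4, which cuts chemokine ends, reached at most 0.135 CPM on average in any group.

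**Figure D5:**
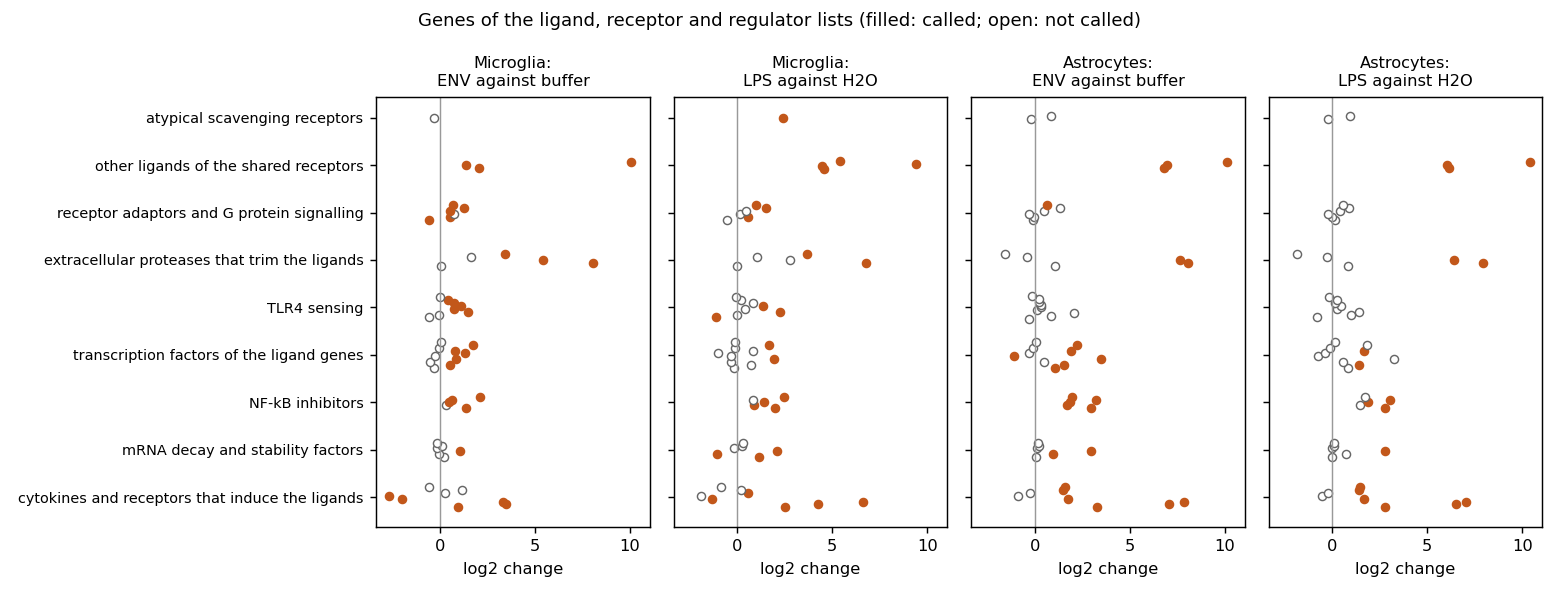
Log2 changes of the tested genes of 9 lists of ligands, scavenging receptors and regulators in the 4 treated comparisons, filled where called and open where not. The other ligands of the shared receptors are filled and above 0 in all panels (the lowest value is 1.36).

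Of all genes, the patterns most like Ccl2 and Ccl7 were each other's. Likeness was the Pearson correlation of log2 CPM over the 28 libraries after the mean of each cell type was subtracted, among 10377 genes whose mean reached 10 CPM in a group. The libraries differ in depth and share treatments within groups, and treated and vehicle libraries form separate clouds, so a high value is a description of this design. Ccl2 was closest to Ccl7 (0.991), then to Cxcl3 (0.968), Csf3 (0.964), Cxcl2 (0.963) and Gbp2 (0.957), with Ccl12 at place 7 (0.955). Cxcl2 and Cxcl3 encode neutrophil attractants, Csf3 a granulocyte growth factor and Gbp2 an interferon-induced GTPase. After Ccl2, Ccl7 was closest to Cxcl2 (0.967), the TNF receptor adaptor gene Traf1 (0.965), Gbp5 (0.961) and Ccl12 (0.959). Ccl12 was closest to Acod1 (0.983), the enzyme that makes itaconate, then to Birc3 (0.979), Tnip3 (0.971), Pde4b (0.970) and Wfdc21 (0.967), with Ccl7 at place 9 and Ccl2 at place 11. Within each cell type alone Ccl2 and Ccl7 correlated at 0.988 in microglia and 0.997 in astrocytes.

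Markers of blood cells were measured because these chemokines attract monocytes. The list of granulocyte and blood monocyte markers summed to 412 to 1142 CPM in vehicle microglia and 3818 to 6758 CPM in treated microglia, and to 6.12 to 49.6 CPM and 34.9 to 304 CPM in vehicle and treated astrocytes. Nearly all of it was Itgal, an integrin chain that activated myeloid cells also carry. Without Itgal the list summed to at most 13.6 CPM in any library, and this remainder was higher in treated microglia, at 0.415 to 0.943 CPM with buffer and 5.05 to 13.6 CPM with ENV, and at 0.170 to 0.538 CPM with H2O and 3.47 to 3.72 CPM with LPS. Of the defining granulocyte genes, Elane was at 0 in microglia with buffer, ENV, H2O and LPS, whereas S100a9 was at 0 with buffer and H2O and had counts with ENV and LPS.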

How the data were processed

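The deposited files hold raw whole-number counts by gene symbol, 1 file per library, and no other unit was used. The assembly mRatBN7.2, StringTie 1.3.3b and HISAT2 stand in the submitters' processing notes, where their roles and settings are not described. Libraries were made by mRNA capture from 150 ng of RNA, per the labels' protocols. Reads carried no molecular identifiers, so counting intervals cover counting error only.

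Microglia and both astrocyte sets have separate gene tables (23139, 20268 and 20056 symbols), which were joined by symbol. CPM used the plain total of a library. Tests were edgeR 4.0.16 quasi-likelihood F tests, 2-sided (TMM, filterByExpr, robust fit; limma 3.58.1, R 4.3.3), adjusted by Benjamini-Hochberg over the genes tested, with calls made below an adjusted p of 0.05. A standard error is the log2 change over the root of F. Cell types were compared over symbols in both tables. Treated and vehicle libraries were compared within a set, and 10 comparisons gave 30 tests of members. All 3 members passed the filter in all 10. Ratios of counts (0.5 added to each) were tested by exact permutation in a family of 12 (scipy 1.17.1). The procedure was tested on simulated data.

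Replicate numbers were taken from sample titles. Libraries of the same number deviated together from their group means, with correlations of 0.26 to 0.637 over 14 pairs. All were above the minimum of 0.1. Libraries of different numbers correlated at -0.559 to 0.531. The numbers were taken as pairs, a reading from the data and not from the labels. Log2 changes, SEs and adjusted p-values are from unblocked fits unless the block is named, and the permutation tests did not use the pairs. With the block, SEs were 0.254 for Ccl12 in astrocytes with ENV (0.842 without) and 0.117 for Ccl2 in microglia with ENV (0.274 without). For Ccl12 in microglia with LPS the SE was 0.992 (0.865 without). The blocked fit is given where it changed a call or moved a count of calls. Alternatives were DESeq2 1.42.0, DESeq2 size factors, no filter, a joint fit, the block, and leaving out libraries. List genes and percentages without the microglial libraries numbered 3 were added after seeing the data. No library was a copy of another.

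The members and all lists were chosen with earlier results of these data known. Named list genes were those called with at least 5 CPM in the higher group, at most 3 per list and comparison by size of change, and Ccr2 and Ccr1. Those given beyond that rule (Ccr3, the Ackr genes, Ccl1, Ccl11 and Dpp4, for their role, and values of a named gene in comparisons where it was not called) were chosen after their values were seen. One gene of the receptor list is not reported here and was left out of the list counts.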

Additional observations from a re-analysis of the deposited data

Results flagged for a closer look

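A distant library was looked for in 24 sets of values, the levels of and ratios between the 3 members in the 4 astrocyte groups, and groups of 3 libraries were not checked. In astrocytes with buffer, replicate 4 had 139 CPM of Ccl7 against 34.8 to 51.1 CPM in the others, a gap to its neighbour of 0.844 of the whole range. In astrocytes with H2O, replicate 4 had 7.45 CPM of Ccl12 against 2.87 to 3.06 CPM, a gap of 0.958 of the range. Chance flags about 1 in 20 groups. The ENV response of Ccl7 differed between microglia and astrocytes by -1.90 on the log2 scale in the fit with the replicate block. Without the block it was -1.75 and not called (edgeR adjusted p = 0.0793).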

How the results depend on the processing

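All 12 rises of the members with ENV or LPS kept their direction under every alternative run, and their call in all but 1 case, Ccl2 in microglia with LPS without H2O replicate 2. Differences that were not called crossed 0 more easily. Without the microglial H2O and LPS libraries numbered 3, the ENV minus LPS response of Ccl2 in microglia was 0.32, the LPS response in microglia minus astrocytes was -0.43 for Ccl2 and -0.50 for Ccl7, and the H2O level of Ccl7 in microglia minus astrocytes was 0.26. For the ENV response of Ccl7 in microglia minus astrocytes, the value was -1.70 with DESeq2 and -1.90 with the replicate block, both called, and the block changed no other call of a member. Levels of different cultures have no paired fit. Counts of called genes moved in astrocytes with ENV (2670, or 4348 with the block), in astrocytes with LPS (785, or 2049 with DESeq2, 2611 with the block and 1736 in a joint fit of 4 groups), for ENV minus LPS in microglia (0, or 67 with DESeq2, 1 with the block and 8 without libraries numbered 3), and for microglia minus astrocytes with ENV (1998, or 3314 with the block) and LPS (1656, or 2720 with DESeq2 and 3029 with the block). The cause was not tested.

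With 1 library left out at a time, log2 values ranged from 3.98 to 5.82 for Ccl2 in microglia with LPS, from -1.71 to 0.04 for its ENV minus LPS response in microglia and from -0.16 to 1.74 for its LPS response in microglia minus astrocytes. Ccl7 ranged from -2.38 to -1.47 for the ENV response and from -0.16 to 1.46 for the LPS response in microglia minus astrocytes, from 0.28 to 1.13 for the buffer level and from -0.80 to 0.26 for the H2O level. Adjusted p in edgeR for its ENV response in microglia minus astrocytes ran from 0.00433 to 0.166. For ENV minus LPS in astrocytes Ccl2 ranged from 0.22 to 1.19 and Ccl7 from 0.33 to 1.22. Ccl12 ranged from -0.091 to 0.93 for that difference and from -0.77 to 0.17 for the ENV response in microglia minus astrocytes. Log2 ratios of Ccl7 to Ccl2 ranged from -0.13 to 0.20 in microglia with LPS and from -0.023 to 0.15 in astrocytes with LPS, those of Ccl12 to Ccl2 in astrocytes from -0.15 to 0.67 with ENV and -0.14 to 0.58 with LPS, and those of Ccl12 to Ccl7 from -0.30 to 0.54 and -0.14 to 0.51. Genes called ranged from 2466 to 5282 and 1351 to 3986 in microglia with ENV and LPS, and from 1487 to 2869 and 236 to 681 in astrocytes. Ccr2, Ccr3 and Ccl11 reached at most 0.151 CPM in a library, and whether depth or absent expression set this was not tested. The members had at least 38 counts in every library.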
